A study of Drosophila melanogaster with 62 samples.

Results

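The genes described here are translation factors and aminoacyl-tRNA synthetases of Drosophila melanogaster, measured by RNA-seq in the fat body of wandering third-instar larvae. They were taken by name from the expression table: every gene whose name begins with Aats-, eIF, Ef1, Ef2 or eRF1, in that case. This gave 55 of 14659 genes. Grouped by their names in the table, 28 are initiation factors, 5 elongation factors, 1 a release factor and 21 tRNA synthetases. By their current symbols 15 of the synthetases serve the cytosol and 6 the mitochondria. The rule used names and no measured value.

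Protein synthesis begins when initiation factors bring the small ribosomal subunit, the initiator tRNA and a capped mRNA together. eIF4E binds the cap, eIF4G bridges it to the eIF3 complex, eIF4A unwinds the leader, and eIF2, recharged by its exchange factor eIF2B, carries the initiator tRNA. Elongation factor 1 delivers charged tRNAs, elongation factor 2 moves the ribosome, eRF1 releases the finished protein, and each synthetase charges tRNA with its amino acid. The larval fat body combines the roles of liver and adipose tissue, secretes storage proteins in bulk before metamorphosis, and adjusts protein synthesis to nutrients through insulin and TOR signalling.

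The study had 18 groups in 4 experiments, with 61 libraries in the table for 62 labelled samples. All larvae carried UAS-Dcr2 on the X chromosome, with cg-GAL4 or r4-GAL4 to drive expression in the fat body, from crosses of driver females with males of a VDRC stock. In cg-GAL4 males, Tfb1 RNAi (stock 12580, against a TFIIH subunit) was compared with w1118 controls, at 1.0 M and at 0.15 M sucrose, with 3 libraries a group. In cg-GAL4 females w1118 controls were reared on 0.7 M or 0.15 M sucrose, 3 libraries each, and in r4-GAL4 females w1118 controls on 0.15 M, 0.3 M, 0.7 M or 1.0 M, 3 each. A second set of r4-GAL4 females held RNAi against FOXO (stock 106097), p53 (stock 103001) or Stat92E (stock 106980) beside controls of stock 60100, at 0.7 M and at 0.15 M. These groups had 4 libraries each, apart from p53 RNAi at 0.15 M with 3 columns. Male tissue was dissected. Female tissue was sheared free and floated by centrifugation, so sex and isolation method cannot be told apart between the male and female experiments. Each RNAi came from 1 stock, and a whole fat body holds other cells that the drivers may not reach.

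Expression was given as FPKM, the fragment number of a gene set against transcript length and sequencing depth, and each library had been scaled further so that nearly the same number of genes reached 1 within an experiment (2080 to 2649 genes, by experiment). Levels are therefore relative within an experiment. For a 1 kb transcript, an FPKM of 1 stood for an estimated 2.51 to 7.94 fragments in the males, 6.31 to 10 in the cg-GAL4 females, 3.98 to 12.6 in the r4-GAL4 w1118 females and 7.94 to 25.1 in the r4-GAL4 60100 females. Values below 1 thus rest on few fragments. The fat body markers (7 genes, storage proteins and lipoproteins among them) summed to 1620 to 14955 FPKM and none was at 0 in all libraries. Salivary gland markers (9 genes) summed to 1201 to 3244 FPKM in male libraries and 5.41 to 751 in female libraries. The RNAi targets averaged lower in their RNAi groups than in their controls: Tfb1 0.467 against 0.819 FPKM at 0.15 M and 0.446 against 0.608 at 1.0 M, foxo 0.340 against 0.599 at 0.15 M and 0.202 against 0.310 at 0.7 M, p53 0.0904 against 0.126 and 0.14 against 0.226, and Stat92E 0.443 against 2.68 and 0.233 against 0.980. The targets also differed in groups not aimed at them: foxo averaged 0.272 in Stat92E RNAi at 0.15 M and 0.184 in p53 RNAi at 0.7 M, Stat92E 1.21 in FOXO RNAi at 0.15 M and 0.452 in p53 RNAi at 0.7 M, and p53 0.504 in FOXO RNAi at 0.7 M. In Tfb1 RNAi males p53 averaged 2.04 against 0.0717 FPKM in controls at 0.15 M and 1.86 against 0.112 at 1.0 M.

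Elongation factors dominated the set. Ef1alpha48D, the main copy of eEF1A that brings charged tRNA to the ribosome, averaged 142 FPKM in the males, 318 in the cg-GAL4 females, 226 in the r4-GAL4 w1118 females and 211 in the 60100 females. By itself it held 20.3 to 52.3% of the summed FPKM of all members in a library, and the members together held 0.791 to 1.89% of the summed FPKM of all genes. Ef2b, the translocase eEF2, averaged 49.3, 65.01, 79.5 and 85.6 FPKM in the same order of experiments. Ef1beta, the exchange factor of eEF1A, averaged 26.6, 40.05, 50.3 and 70.995 FPKM, and its partner Ef1gamma 19.7, 35.4, 45.9 and 62.2 FPKM. Ef1alpha100E, the second eEF1A gene, averaged only 0.357, 0.783, 0.312 and 0.587 FPKM, far below its paralog in every experiment. eRF1, which recognises stop codons, averaged 1.70, 2.35, 4.76 and 4.89 FPKM.

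**Figure D1:**
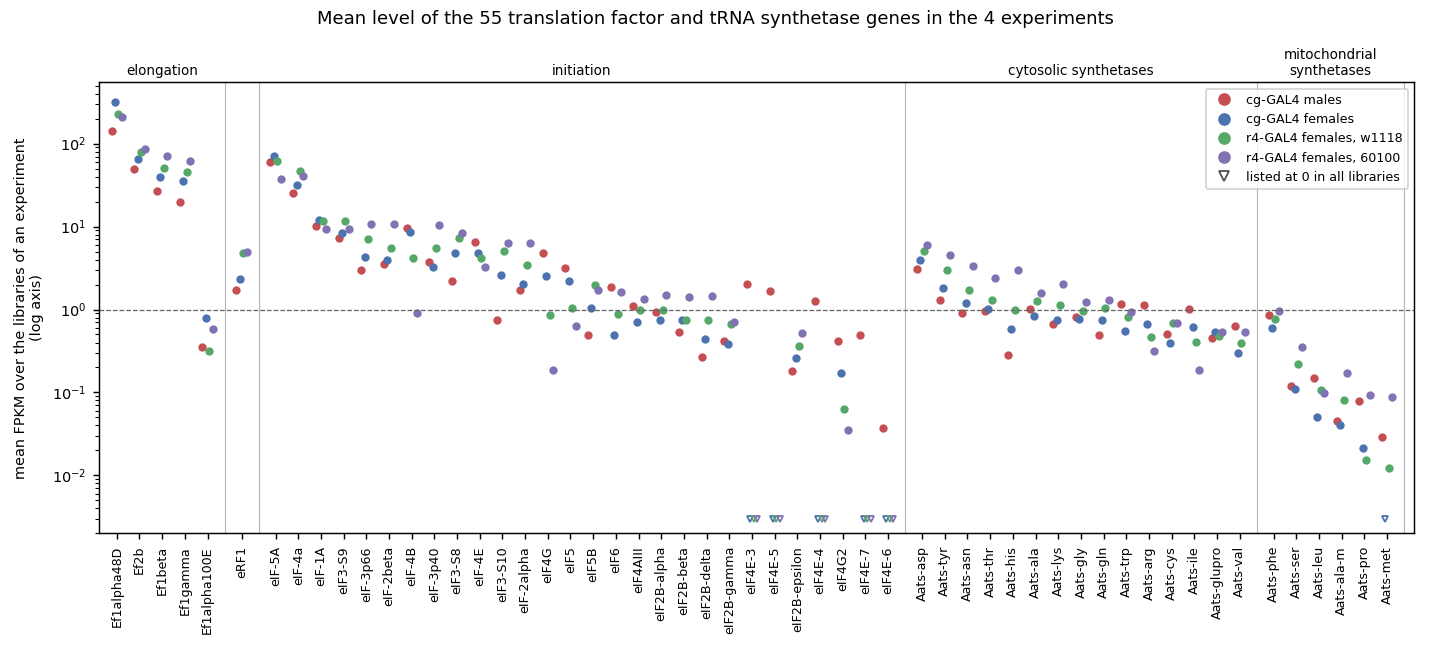
Mean FPKM of each of the 55 members (log axis) in the 4 experiments, grouped by role; points are means over 12, 6, 12 and 31 libraries, the dashed line marks 1 FPKM, and open triangles mark genes listed at 0 in all libraries of an experiment. Ef1alpha48D lies highest, most cytosolic synthetases lie near 1, the mitochondrial ones lie below it, and the eIF4E-3 to eIF4E-7 genes are listed at 0 in all female experiments.

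Initiation factors spanned a far wider range than the synthetases. eIF-5A, whose protein carries hypusine and also helps elongation, was placed in this role by its table name, though its current symbol is eEF5. It had the highest mean of the role in 3 experiments (59.8 FPKM in males, 70.4 in cg-GAL4 females and 61.9 in r4-GAL4 w1118 females). The helicase eIF-4a had the highest in the 60100 females (40.7 FPKM). The medians over the 28 initiation genes were 1.79, 1.54, 1.02 and 1.48 FPKM. The eIF2B exchange factor lay low throughout: its subunits eIF2B-alpha, -beta, -gamma, -delta and -epsilon did not reach the mean of 1 needed for testing except for the alpha, beta and delta subunits in the 60100 females. Among the 15 cytosolic synthetases the median was 0.908, 0.740, 0.981 and 1.301 FPKM, and Aats-asp, which charges tRNA with aspartate, was the highest in each experiment (3.09, 3.92, 5.07 and 6.07 FPKM). Aats-phe was the highest of the 6 mitochondrial synthetases, at 0.596 to 0.959 FPKM, and none of these 6 passed the filter in any experiment.

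The eIF4E family split by experiment. eIF-4E, the general cap-binding protein, was above 0 in all 61 libraries, between 5.75 and 7.66 FPKM (median 6.66) in the 12 male libraries and between 1.87 and 5.60 (median 3.62) in the 49 female libraries. Male and female libraries were scaled in separate experiments, so the gap between these ranges is not a measured difference in level. eIF4E-3, a family member known for its part in sperm formation, lay between 1.39 and 3.23 FPKM in the male libraries and was listed at 0 in all 49 female libraries. eIF4E-5 (1.04 to 2.48 FPKM), eIF4E-4 (0.773 to 2.58) and eIF4E-7 (0.316 to 0.729) were also above 0 in 12 of 12 male libraries and listed at 0 in all 49 female ones. eIF4E-6 was above 0 in only 2 male libraries, at 0.263 FPKM in a control library and 0.179 in a Tfb1 RNAi library, both at 1.0 M. The gonad markers (13 genes) summed to 13.4 to 28.8 FPKM in male libraries and 0 to 1.22 in female libraries. Of their defining genes, the sperm-tail gene dj lay between 2.01 and 7.29 FPKM and the testis tubulin betaTub85D between 1.60 and 3.56 in the males. Each was above 0 in 1 of 49 female libraries. Mst84Dc was at 0 in all female libraries, and vas was above 0 in 2 of 12 male and 5 of 49 female libraries. Mst87F did not split in this way. It lay between 3.63 and 8.72 FPKM in the males and was above 0 in 36 of 49 female libraries, at up to 1.22 FPKM. The part of gonad RNA in the paralogs' levels was not tested. By the labels the male controls and the cg-GAL4 females shared driver and w1118 stock, but the headings of the male columns say r4. Sex and isolation cannot be told apart, and no cause of the split was tested.

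**Figure D2:**
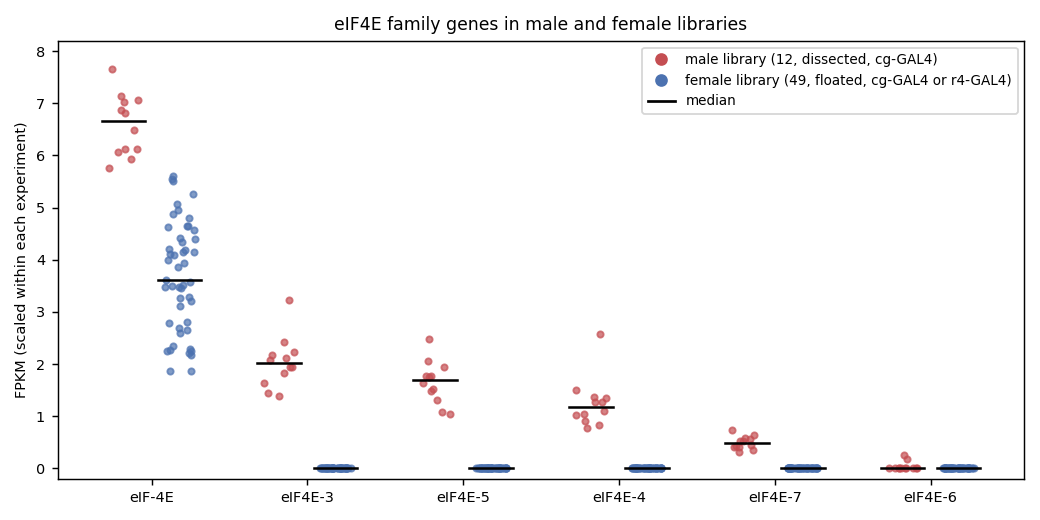
FPKM of the 6 eIF4E family genes in each library, male libraries (12, dissected) left of female libraries (49, floated), with the median as a bar. eIF-4E is present in all libraries, and eIF4E-3, eIF4E-5, eIF4E-4 and eIF4E-7 are above 0 in every male library and at 0 in every female one.

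Differences were tested with limma on log2(FPKM + 1) over the genes that averaged 1 FPKM or more in an experiment. Adjustment by the Benjamini-Hochberg method covered all genes tested, and calls needed an adjusted p under 0.05. A change on this scale understates that of low genes. Of the members 29 passed the filter in the males, 24 in the cg-GAL4 females, 27 in the r4-GAL4 w1118 females and 31 in the 60100 females; 17 passed in all 4, 23 in some and 15 in none. Members below the filter were not tested in this fit. Changes given for some of them come from a separate fit with a lower filter. Where the median change of all genes lay more than 0.1 from 0, the rescaled fit moved it close to 0: it was 0.15 in the cg-GAL4 females at 0.7 M against 0.15 M, 0.15 in the w1118 females at 0.3 M and at 0.7 M, 0.11 in the 60100 controls, -0.13 in the male diet comparison and in Tfb1 RNAi at 0.15 M, 0.13 in the Tfb1 difference between diets, -0.13 in FOXO RNAi at 0.7 M and -0.11 in the FOXO difference between diets. No called change turned its sign in any alternative fit. In the release 6 annotation 23 members have an exon that overlaps another gene, eIF-5A, eIF-1A, eIF-4a, Aats-asp and Aats-his among them, and the sources used here do not say whether counting used strand.

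**Figure D3:**
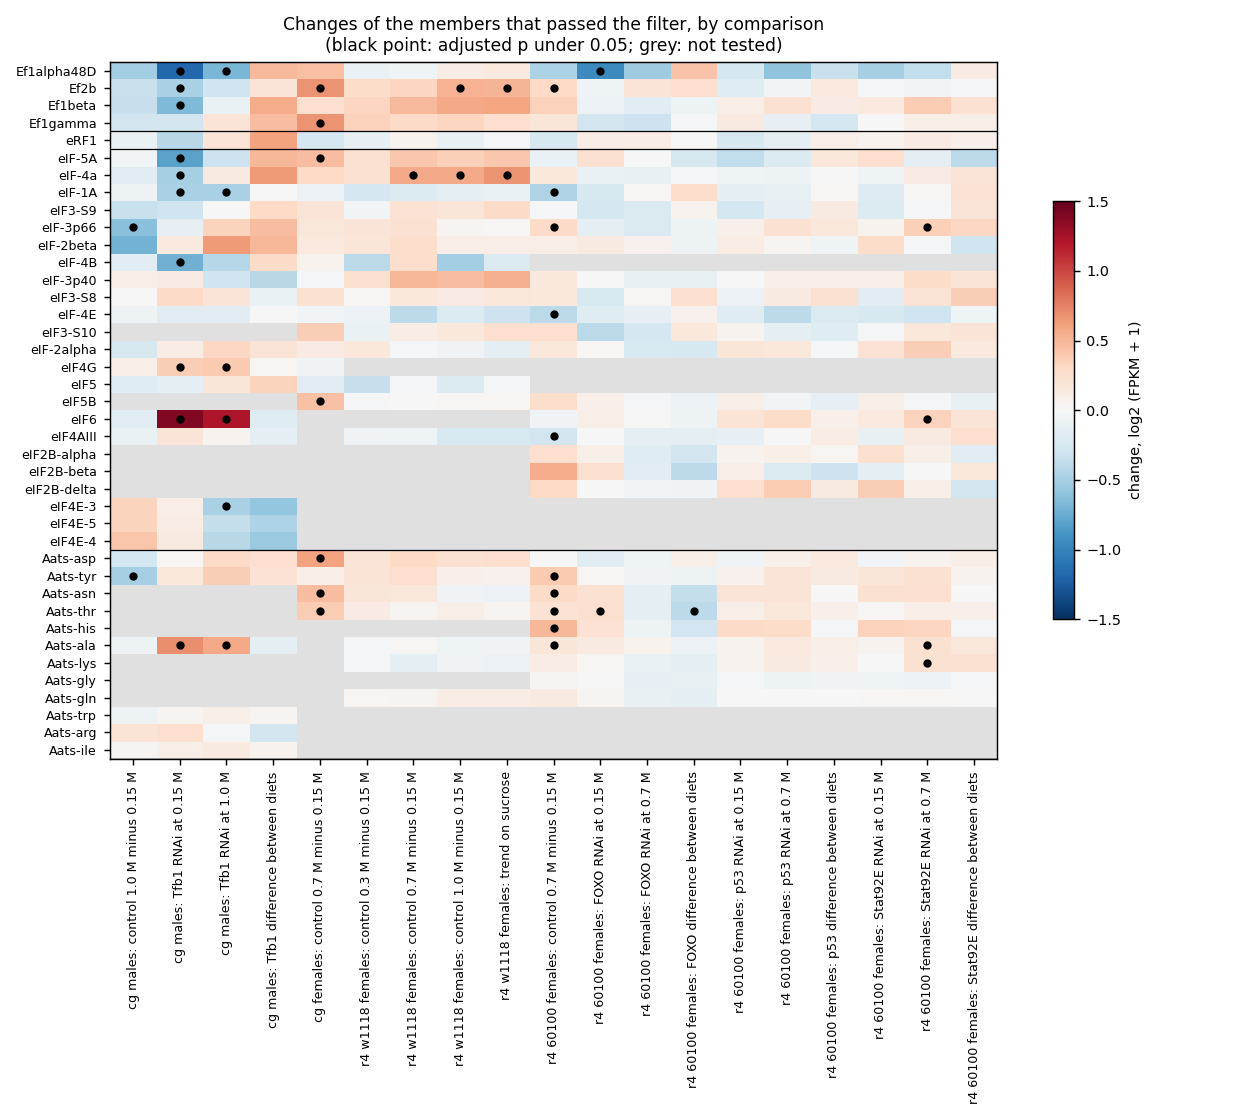
Change (log2 of FPKM + 1, colour from -1.5 to 1.5) of each member that passed the filter in at least 1 experiment (rows, by role) in the 19 comparisons (columns); black points mark adjusted p under 0.05 and grey cells were not tested. The strongest colours stand in the Tfb1 columns, where eIF6 is higher and Ef1alpha48D lower.

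Knockdown of Tfb1 in males at 0.15 M sucrose moved members in both directions. eIF6, which keeps the large ribosomal subunit from joining too early and serves ribosome assembly, rose, as did the alanine synthetase Aats-ala and the scaffold eIF4G. Ef1alpha48D, Ef1beta and Ef2b fell, and so did eIF-5A, eIF-4B, eIF-4a and eIF-1A. Thus 10 of 29 tested members were called, 3 higher and 7 lower, against a background of 36.2% of all genes tested (10.4% higher and 25.8% lower; 387 and 519 genes after rescaling, 280 and 696 before), a share of members (34.5%) near that of all genes. After rescaling 5 members were higher and 5 lower, with eIF3-S8 (0.41, adjusted p = 0.0195, limma) and Aats-arg (0.34, 0.0124) added to the higher ones. By role 3 of 4 elongation factors fell and none rose, with a median change of -0.57, while the 29 members had a median of 0.04 and all genes -0.13.

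eIF6 stood at 3.98, 3.28 and 3.48 FPKM in Tfb1 RNAi, against 0.580, 0.8286 and 0.823 in controls. Every RNAi library lay far above every control library, and the change was 1.39 ± 0.11 (SE; adjusted p = 6.25e-06, limma). Ef1alpha48D stood at 104, 89.2 and 97.3 FPKM in Tfb1 RNAi, against 213, 195 and 253 in controls. All RNAi libraries were at about the same low level, and the change was -1.17 ± 0.18 (adjusted p = 0.000452). eIF-5A stood at 38.3, 38.2 and 45.8 FPKM in Tfb1 RNAi, against 69.2, 70.6 and 76.1 in controls, a change of -0.81 ± 0.13 (adjusted p = 0.000635) with no overlap. eIF-4B, the cofactor that stimulates the eIF-4a helicase, stood at 6.84, 6.98 and 7.62 FPKM in Tfb1 RNAi, against 9.84, 12.8 and 15.1 in controls, a change of -0.72 ± 0.16 (adjusted p = 0.00592). Its control libraries were spread, but the groups did not overlap. Aats-ala averaged 1.64 ± 0.18 FPKM in Tfb1 RNAi and 0.630 ± 0.088 in controls (SD, n = 3 each; change 0.70, adjusted p = 0.000116, limma). The remaining called changes were -0.66 for Ef1beta, -0.50 for eIF-4a, -0.49 for eIF-1A and Ef2b, and 0.37 for eIF4G.

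The fat body markers moved too, with sums of 4608 to 5336 FPKM in Tfb1 RNAi against 9333 to 11011 in controls, and 6 of their 7 genes fell. Salivary gland markers summed to 1792 to 2542 against 2460 to 3244 FPKM, and 3 of 9 fell. The 1 hemocyte marker tested, He, rose by 0.61. Their part in the members' changes was not tested, and in bulk tissue fewer cells of a type and less RNA per cell cannot be told apart. The call for eIF-4a was lost without any 1 of RNAi libraries 1, 2 and 3 or control libraries 2 and 3 (adjusted p 0.0515 to 0.0819, limma), that for Ef2b without RNAi or control library 1 or 3 (0.0581 to 0.104) and that for eIF4G without RNAi or control library 1 (0.0654 and 0.0700). Rescaling by the median ratio also ended the calls for Ef2b (0.0801) and eIF-4a (0.0645), and removal of a transcript length trend that for eIF4G (0.151).

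At 1.0 M sucrose Tfb1 RNAi went with the same direction for eIF6, Aats-ala, eIF4G, Ef1alpha48D and eIF-1A, and eIF4E-3 fell. In all 6 of 29 members were called, 3 in each direction, against 24.1% of all genes (12.2% higher and 11.9% lower). After rescaling 6 were higher and 3 lower, the added ones being eIF-3p66 (0.36, adjusted p = 0.0195, limma), Aats-tyr (0.39, 0.0388) and eIF-2alpha (0.33, 0.0178). eIF6 stood at 2.91, 2.77 and 2.17 FPKM in Tfb1 RNAi, against 0.610, 0.424 and 0.643 in controls, a change of 1.21 ± 0.11 (adjusted p = 2.85e-05, limma) with no overlap. Ef1alpha48D stood at 91.97, 99.6 and 91.6 FPKM in Tfb1 RNAi, against 169, 112 and 188 in controls, a change of -0.69 ± 0.18 (adjusted p = 0.0168). Control library 2 came near the RNAi libraries. Aats-ala stood at 1.34, 1.19 and 1.33 FPKM in Tfb1 RNAi, against 0.536, 0.532 and 0.565 in controls, a change of 0.56 ± 0.09 (adjusted p = 0.000838). eIF-1A, which helps the small subunit scan for the start codon, stood at 9.48, 7.67 and 7.22 FPKM in Tfb1 RNAi, against 11.4, 11.2 and 12.5 in controls, a change of -0.48 ± 0.11 (adjusted p = 0.00827). These groups did not overlap either. eIF4G changed by 0.39 and eIF4E-3 by -0.48; beside eIF4E-3, the gonad markers summed to 13.4 to 26.9 FPKM in Tfb1 RNAi and 20.7 to 28.8 in controls. Fat body markers summed to 1620 to 2144 FPKM in Tfb1 RNAi against 2813 to 4418 in controls (5 of 7 fell), salivary gland markers to 1201 to 1766 against 2346 to 2496 (3 of 9 rose and 5 fell), and hemocyte markers to 3.74 to 5.94 against 1.13 to 1.998 (the 1 tested, He, rose by 1.34). The part of these markers was not tested.

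The call for Ef1alpha48D at 1.0 M was lost without RNAi library 1 or control library 1 or 3 (adjusted p 0.0545 to 0.0583, limma), that for eIF4G without RNAi library 1 or 2 or control library 1 or 3 (0.0527 to 0.0691), and that for eIF4E-3 without RNAi library 1 or 2 (0.0608 and 0.0660). Removal of a length trend ended the call for eIF4G (0.0586). The difference of the Tfb1 effect between diets was called for 0 of 29 members by limma, with 5 at an unadjusted p under 0.05, against 8.41% of all genes (7.12% higher and 1.3% lower). The largest were eIF-4a at 0.64 ± 0.21 (adjusted p = 0.102) and eRF1 at 0.61 ± 0.29 (adjusted p = 0.225). Without control library 3 at 1.0 M the eIF-4a difference was 0.77 with an adjusted p of 0.0411.

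In control males high sugar touched few members. At 1.0 M against 0.15 M sucrose 2 of 29 were called, both lower, against a background of 28.3% (5.37% higher and 22.9% lower, 145 and 618 genes, and 220 and 440 after rescaling). After rescaling, and likewise with a length trend removed, 2 members were higher and 2 lower: eIF4E-3 (0.45, adjusted p = 0.0459 after rescaling, limma) and Aats-arg (0.29, 0.0384) were then called higher. eIF-3p66, the subunit eIF3d, stood at 2.24, 1.51 and 2.51 FPKM at 1.0 M, against 3.90, 3.41 and 3.85 at 0.15 M, a change of -0.63 ± 0.12 (adjusted p = 0.00309, limma). Aats-tyr, the tyrosine synthetase, stood at 0.934, 0.413 and 0.881 FPKM at 1.0 M, against 1.61, 1.17 and 1.56 at 0.15 M, a change of -0.50 ± 0.14 (adjusted p = 0.0215). For both genes library 2 at 1.0 M was the lowest, and the groups did not overlap. The call for Aats-tyr was lost without library 1 or 3 at 0.15 M or library 2 at 1.0 M (adjusted p 0.0658 to 0.0799). The fat body markers summed to 2813 to 4418 FPKM at 1.0 M against 9333 to 11011 at 0.15 M (6 of 7 fell), and 2 of 4 tested gonad markers rose. Their part was not tested.

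**Figure D4:**
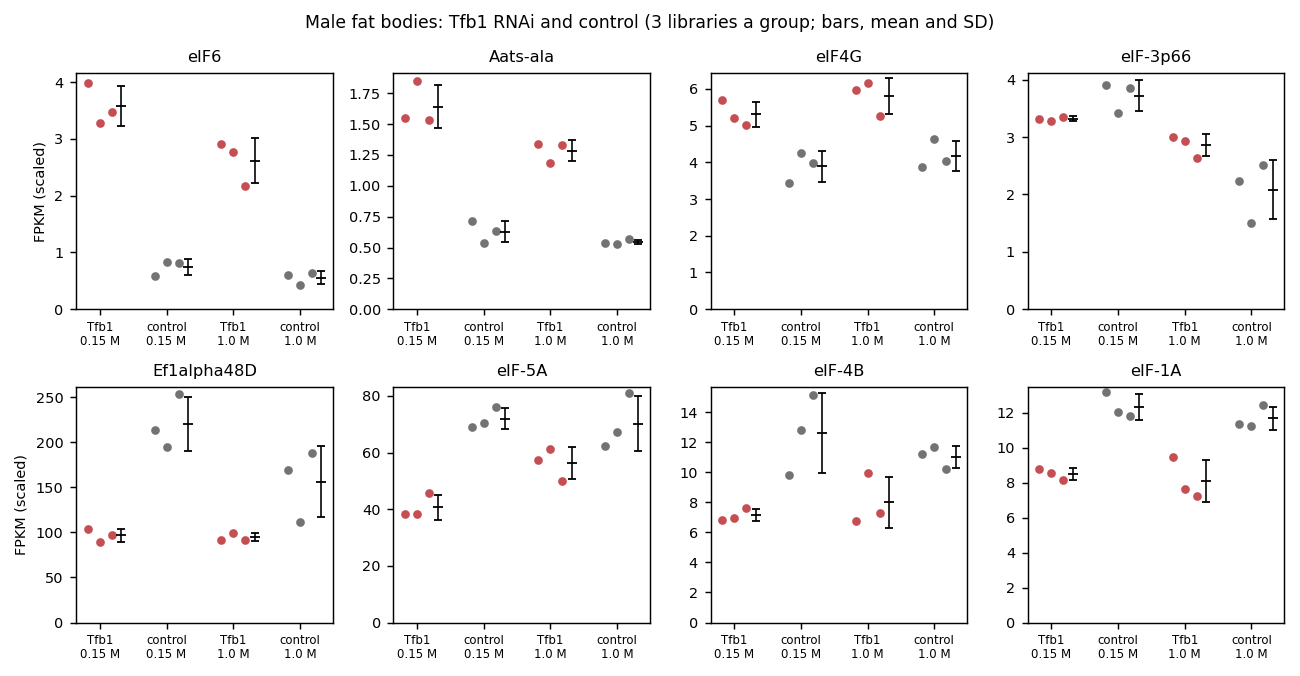
FPKM of 8 members in the 12 male libraries (points), Tfb1 RNAi left of control at each diet, with mean and SD beside them (n = 3). eIF6 and Aats-ala sit above all controls in every Tfb1 library, Ef1alpha48D and eIF-1A below them, and eIF-3p66 is lowest in controls at 1.0 M.

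In cg-GAL4 females at 0.7 M sucrose all called members were higher. Ef2b and Ef1gamma, the synthetases Aats-asp, Aats-asn and Aats-thr, and the initiation genes eIF-5A and eIF5B rose, and no member fell. These 7 of 24 tested members stand against 39.7% of all genes called, 27.5% higher and 12.3% lower, so the members' share of higher calls (29.2%) was near that of all genes. The change of eRF1 was -0.26 and was not called. Of 4 tested synthetases 3 rose, and of 4 elongation factors 2 rose. Ef2b stood at 85.5, 79.2 and 75.9 FPKM at 0.7 M, against 54.7, 49.7 and 45.1 at 0.15 M, a change of 0.68 ± 0.12 (adjusted p = 0.00609, limma). Ef1gamma stood at 43.5, 44.1 and 43.4 FPKM at 0.7 M, against 30.4, 26.998 and 24.2 at 0.15 M, a change of 0.67 ± 0.12 (adjusted p = 0.00636). Its high-sugar libraries were nearly equal and all lay above the others. Aats-asp stood at 4.46, 5.29 and 4.99 FPKM at 0.7 M, against 3.44, 2.95 and 2.36 at 0.15 M, a change of 0.60 ± 0.13 (adjusted p = 0.0129). eIF-5A stood at 95.2, 76.97 and 73.4 FPKM at 0.7 M, against 62.1, 52.1 and 62.6 at 0.15 M, a change of 0.46 ± 0.15 (adjusted p = 0.0442). No group pair overlapped among the 7 genes, but these were picked as called, and overlap was not counted over all genes. Aats-asn changed by 0.46, eIF5B, the GTPase that joins the ribosomal subunits, by 0.44, and Aats-thr by 0.38.

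Rescaling by the median ratio left 3 of these calls, Ef2b, Ef1gamma and Aats-asn, with a median change of -0.02 over the members, while eIF5B, eIF-5A and Aats-asp had adjusted p-values of 0.1001, 0.154 and 0.0519 (limma) and Aats-thr was below the filter; over all genes the split of calls changed from 585 higher and 262 lower to 360 and 397. The calls for eIF5B (adjusted p 0.0642 to 0.0781) and Aats-thr (0.0596 to 0.0849) were lost without any 1 of the 3 libraries at 0.15 M, and that for eIF-5A without any 1 of the 6 (0.0627 to 0.133). Markers of other cells moved with this diet: hemocyte markers (8 genes) summed to 0.282 to 0.619 FPKM at 0.7 M against 12.6 to 19.7 at 0.15 M, with 4 of them at 0 in all 0.7 M libraries, midgut markers (8 genes) to 1.76 to 1.93 against 4.84 to 68.4, and salivary gland markers to 5.41 to 18.5 against 33.3 to 591. Fat body markers summed to 10472 to 12236 FPKM at 0.7 M against 5269 to 7162 at 0.15 M. Their part in the members' changes was not tested.

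Across the 4 diets of the r4-GAL4 w1118 females, eIF-4a and Ef2b were the called members, both higher with sugar. eIF-4a stood at 34.8, 35.3 and 39.03 FPKM at 0.15 M, at 41.5, 42.9 and 43.6 at 0.3 M, at 50.8, 53.8 and 58.5 at 0.7 M and at 48.9, 57.5 and 56.7 at 1.0 M. Every group above 0.15 M lay wholly above it, and the 0.7 M and 1.0 M groups overlapped. Its change was 0.57 ± 0.12 at 0.7 M (adjusted p = 0.0139, limma) and 0.57 ± 0.12 at 1.0 M (adjusted p = 0.0111), with a linear trend of 0.67 ± 0.13 per 1 M of sucrose (adjusted p = 0.00555). Ef2b stood at 60.2, 68.8 and 64.9 FPKM at 0.15 M, at 70.1, 76.2 and 90.4 at 0.3 M, at 73.1, 79.4 and 91.4 at 0.7 M and at 87.8, 96.7 and 94.7 at 1.0 M. The middle diets overlapped each other. Its change was 0.52 ± 0.14 at 1.0 M (adjusted p = 0.0282), with a trend of 0.51 ± 0.15 per 1 M (adjusted p = 0.0375).

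Of 27 tested members 0 were called by limma at 0.3 M, with 1 at an unadjusted p under 0.05, against 7.72% of all genes (6.34% higher and 1.38% lower). At 0.7 M 1 was called against 14.3% (11.3% higher and 2.94% lower), at 1.0 M 2 against 17.2% (12.6% higher and 4.64% lower), and in the trend 2 against 17.5% (12% higher and 5.47% lower). Rescaling changed the split over all genes to 35 higher and 36 lower at 0.3 M (138 and 30 before), 146 and 135 at 0.7 M (247 and 64), 220 and 145 at 1.0 M (274 and 101) and 226 and 163 in the trend (262 and 119). The largest changes at 0.3 M were those of eIF-4B (-0.41 ± 0.42, adjusted p = 0.541) and eIF5 (-0.35 ± 0.27, adjusted p = 0.404). Of 7 tested synthetases 0 were called by limma in any of these comparisons. The eIF-4a call at 0.7 M was lost without library 1 at 0.15 M or library 2 or 3 at 0.7 M (adjusted p 0.0534 to 0.0573), and the Ef2b calls without 5 of the 6 libraries at 1.0 M and 0.15 M (0.0595 to 0.104) and, in the trend, without 8 of 12 (0.0547 to 0.106) or under removal of a length trend (0.0535). Midgut markers summed to 54.7 to 143 FPKM at 0.15 M, 18 to 51.6 at 0.3 M, 2.70 to 5.03 at 0.7 M and 2.97 to 6.08 at 1.0 M, and their part was not tested.

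In the r4-GAL4 60100 controls at 0.7 M sucrose, 10 members were called. Aats-his, Aats-tyr, Aats-asn, Aats-thr and Aats-ala rose, 5 of 9 tested synthetases, with none lower, and Ef2b and eIF-3p66 rose too. eIF-1A, eIF-4E and eIF4AIII, a helicase of the exon junction complex, fell. The 10 of 31 called members stand against 31.1% of all genes (18.7% higher and 12.4% lower), a share of members (32.3%) near that of all genes. After rescaling 2 of these 5 synthetase calls remained, Aats-his and Aats-tyr. The median change was 0.18 over the tested synthetases, 0.16 over the 31 members and 0.11 over all genes.

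Aats-his stood at 3.16, 3.88, 3.799 and 1.88 FPKM at 0.7 M, against 1.88, 2.14, 2.29 and 1.35 at 0.15 M, a change of 0.50 ± 0.17 (adjusted p = 0.0270, limma). Library 4 at 0.7 M lay within the range at 0.15 M. eIF-1A stood at 8.87, 6.82, 7.17 and 11.4 FPKM at 0.7 M, against 11.1, 12.6, 10.2 and 13.6 at 0.15 M, a change of -0.45 ± 0.12 (adjusted p = 0.00882). eIF-4E stood at 3.11, 2.60, 2.81 and 4.21 FPKM at 0.7 M, against 4.42, 4.64, 4.15 and 4.65 at 0.15 M, a change of -0.40 ± 0.14 (adjusted p = 0.0330). For both genes library 4 at 0.7 M again reached the other group. Aats-tyr stood at 4.80, 5.92, 4.86 and 4.35 FPKM at 0.7 M, against 3.29, 3.98, 3.15 and 3.69 at 0.15 M, a change of 0.40 ± 0.10 (adjusted p = 0.00366). Here the groups did not overlap, nor did they for Ef2b (94.3 ± 0.6 FPKM at 0.7 M and 76.7 ± 4.7 at 0.15 M, SD, n = 4 each) or eIF4AIII (1.17 ± 0.05 and 1.63 ± 0.14 FPKM at 0.7 M and 0.15 M, n = 4 each). The changes of the others were 0.30 for Ef2b, 0.29 for eIF-3p66, 0.28 for Aats-asn, 0.22 for Aats-thr, 0.18 for Aats-ala and -0.28 for eIF4AIII.

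Aats-tyr, eIF4AIII and eIF-1A kept their calls without any 1 library, while those for Aats-his, Aats-asn, Aats-thr, Aats-ala, eIF-3p66, eIF-4E and Ef2b were each lost without at least 1 of the 7 libraries other than library 4 at 0.7 M (adjusted p 0.0513 to 0.151, limma), Ef2b only without library 1 or 3 at 0.15 M. Rescaling ended the calls for Ef2b (0.259), eIF-3p66 (0.107), Aats-asn (0.0608), Aats-thr (0.165) and Aats-ala (0.295), added Ef1alpha48D (-0.61, 0.0493), so that 2 members were higher and 4 lower, and over all genes it changed the split from 471 higher and 313 lower to 381 and 432. Muscle markers (11 genes) summed to 22.8 to 68.6 FPKM at 0.7 M against 12.1 to 19.7 at 0.15 M, and fat body markers to 9397 to 13045 against 13867 to 14901. Of the tested genes 6 of 7 muscle, 3 of 7 midgut and 1 of 6 salivary gland markers rose, and 4 of 7 fat body markers fell. Aats-arg, below the filter, was called lower with a filter of 0.25 and a pseudocount of 0.1 (-0.73, adjusted p = 0.0185, limma). The markers' part was not tested.

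FOXO is a transcription factor restrained by insulin signalling, and its knockdown at 0.15 M went with a lower Ef1alpha48D. Ef1alpha48D stood at 148, 229, 151 and 137 FPKM in FOXO RNAi, against 300, 353, 277 and 344 in controls, a change of -0.96 ± 0.20 (adjusted p = 0.00185, limma). FOXO library 2 stood above the other 3 yet below every control. The threonine synthetase Aats-thr stood at 2.63, 2.25, 2.84 and 2.44 FPKM in FOXO RNAi, against 2.02, 2.22, 2.06 and 1.69 in controls, a change of 0.24 ± 0.08 (adjusted p = 0.0347) that separated the groups narrowly. These were 2 of 31 members, against 17.3% of all genes (6.58% higher and 10.7% lower). After rescaling Aats-asn (0.22, adjusted p = 0.0415, limma) and Ef1gamma (-0.30, 0.0496) were called too. At 0.7 M 0 of 31 were called by limma, with 5 at an unadjusted p under 0.05, against 26.8% (9.76% higher and 17% lower). Over all genes that comparison held 246 higher and 429 lower calls, and 360 and 268 after rescaling. Ef1alpha48D then stood at 176, 167, 189 and 109 FPKM in FOXO RNAi, against 269, 139, 212 and 339 in controls (-0.53 ± 0.20, adjusted p = 0.0518), with overlap, and Ef1gamma changed by -0.31 ± 0.13 (adjusted p = 0.0753).

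The FOXO effect on Aats-thr differed between diets, by -0.39 ± 0.11 (adjusted p = 0.0208, limma), with 2.07, 2.07, 1.99 and 2.46 FPKM in FOXO RNAi at 0.7 M against 2.39, 2.73, 2.64 and 2.20 in controls. This was 1 of 31 members, against 13.6% of all genes (6.11% higher and 7.54% lower; 154 and 190 genes, and 218 and 122 after rescaling). The Aats-thr call at 0.15 M was lost without library 1, 3 or 4 of either group (adjusted p 0.0501 to 0.128), its interaction without FOXO library 3 at 0.15 M or control library 2 at 0.7 M (0.0505 and 0.0563) and under rescaling (0.0824), and Ef1alpha48D at 0.7 M was called without control library 2 (-0.77, adjusted p = 0.00248) or FOXO library 3 (-0.62, 0.0396). Without FOXO library 3 Ef1gamma was called as well (-0.38, 0.0465). Fat body markers summed to 7753 to 9569 FPKM in FOXO RNAi against 13867 to 14901 in controls at 0.15 M, salivary gland markers to 88.1 to 133 against 156 to 562 (5 of 6 tested fell), and midgut markers to 99.7 to 352 against 4.56 to 108 (3 of 7 rose). At 0.7 M fat body markers summed to 6413 to 7732 FPKM in FOXO RNAi against 9397 to 13045 in controls (5 of 7 fell), and 3 of 7 midgut markers fell. Their part was not tested.

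Knockdown of p53, known for its roles in stress responses and metabolism, gave 0 called members by limma at 0.15 M, at 0.7 M and in the difference between diets, with 1, 6 and 0 of 31 at an unadjusted p under 0.05, against 2.14%, 12.3% and 0.278% of all genes. Of these genes 1.11% were higher and 1.03% lower at 0.15 M, and 4.6% higher and 7.74% lower at 0.7 M; in the difference the shares were 0.119% and 0.159%. At 0.15 M the largest changes were those of eIF-5A (29.8 ± 2.2 FPKM in p53 RNAi, n = 3, and 38.7 ± 3.6 in controls, n = 4; change -0.36, adjusted p = 0.274, limma) and Aats-his (0.29, adjusted p = 0.434). At 0.7 M Ef1alpha48D stood at 170, 116, 175 and 147 FPKM in p53 RNAi, against 269, 139, 212 and 339 in controls, a change of -0.60 ± 0.20 (adjusted p = 0.0521). eIF-4E stood at 2.21, 2.26, 2.24 and 1.87 FPKM in p53 RNAi, against 3.11, 2.60, 2.81 and 4.21 in controls, a change of -0.40 ± 0.14 (adjusted p = 0.0628) with no overlap. Without control library 2 at 0.7 M both were called, Ef1alpha48D at -0.84 (adjusted p = 0.00239) and eIF-4E at -0.47 (adjusted p = 0.0288). In the difference between diets the largest were Ef1alpha48D (-0.33, adjusted p = 0.999) and eIF2B-beta (-0.31, adjusted p = 0.999). At 0.7 M fat body markers summed to 6719 to 8047 FPKM in p53 RNAi against 9397 to 13045 in controls (5 of 7 fell), and their part was not tested.

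Stat92E is the transcription factor of JAK/STAT signalling, and its knockdown at 0.7 M went with higher eIF-3p66, eIF6, Aats-ala and Aats-lys. These 4 of 31 members stand against 13.1% of all genes (6.7% higher and 6.35% lower). eIF-3p66 stood at 14.3, 15.2, 13.1 and 15.9 FPKM in Stat92E RNAi, against 11.2, 12.0, 11.7 and 9.96 in controls, a change of 0.36 ± 0.09 (adjusted p = 0.0143, limma). eIF6 stood at 2.41, 1.99, 2.02 and 1.64 FPKM in Stat92E RNAi, against 1.32, 1.52, 1.34 and 1.27 in controls, a change of 0.35 ± 0.10 (adjusted p = 0.0236). Neither gene overlapped between groups. Aats-ala stood at 2.02, 2.18, 1.98 and 1.94 FPKM in Stat92E RNAi, against 1.51, 1.89, 1.652 and 1.33 in controls, a change of 0.23 ± 0.06 (adjusted p = 0.0193). Aats-lys, the lysine synthetase, stood at 2.67, 2.33, 2.43 and 2.72 FPKM in Stat92E RNAi, against 2.11, 1.93, 2.16 and 1.90 in controls, a change of 0.23 ± 0.07 (adjusted p = 0.0317). Each call was lost without 1 or more libraries: eIF-3p66 without control library 4 (0.0623), eIF6 without Stat92E library 1 or 3 or control library 1 or 4 (0.0549 to 0.0941), Aats-ala without Stat92E library 2 or control library 1 or 4 (0.0566 to 0.0927), and Aats-lys without library 1 or 4 of either group (0.0625 to 0.0948). Rescaling ended the calls for Aats-lys (0.0540) and Aats-ala (0.0875). Fat body markers summed to 7692 to 10333 FPKM in Stat92E RNAi against 9397 to 13045 in controls (4 of 7 fell), and salivary gland markers to 215 to 506 against 383 to 751 (1 of 6 tested fell); their part was not tested.

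At 0.15 M Stat92E RNAi gave 0 called members by limma, with 4 of 31 at an unadjusted p under 0.05, against 3.09% of all genes (1.47% higher and 1.63% lower), and the difference between diets likewise 0, with 4, against 0.238% (0.0397% higher and 0.198% lower). The largest change at 0.15 M was that of Ef1alpha48D, at 228, 230, 214 and 227 FPKM in Stat92E RNAi against 300, 353, 277 and 344 in controls (-0.49 ± 0.20, adjusted p = 0.131). The groups did not overlap. eIF2B-delta changed by 0.37 ± 0.32 (adjusted p = 0.478), and in the difference between diets eIF-5A by -0.39 ± 0.22 (adjusted p = 0.474) and eIF3-S8, the subunit eIF3c, by 0.37 ± 0.14 (adjusted p = 0.244). The 3 knockdowns share their controls, so these values stand side by side.

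**Figure D5:**
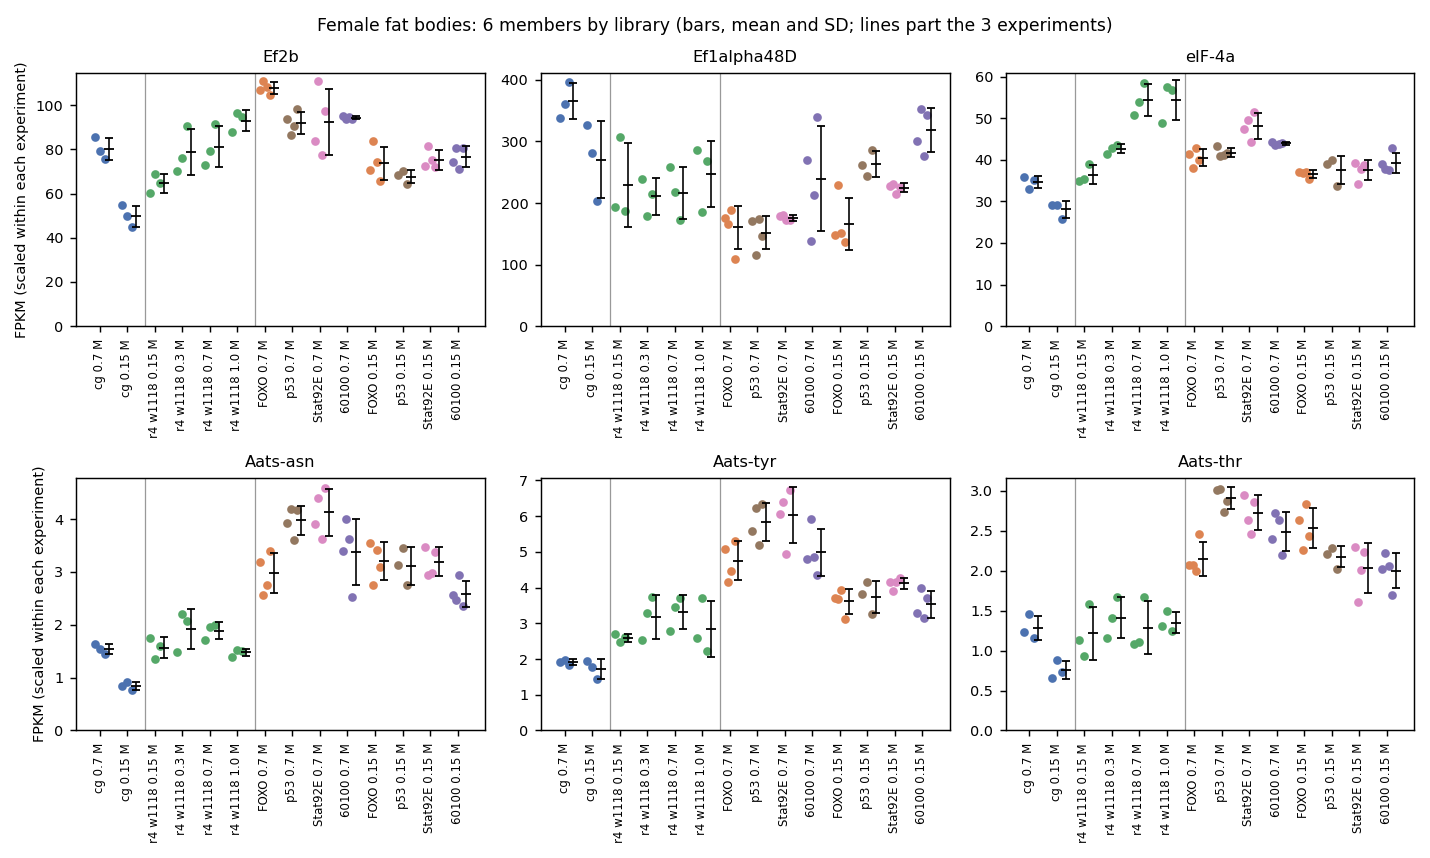
FPKM of 6 members in the 49 female libraries (points), with mean and SD, in cg-GAL4 females (0.7 M left of 0.15 M), r4-GAL4 w1118 females (0.15 to 1.0 M) and r4-GAL4 60100 females (0.7 M left of 0.15 M, knockdowns left of control). Ef2b and eIF-4a are higher with sugar in w1118 females, and Ef1alpha48D in FOXO RNAi at 0.15 M lies below its controls.

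Several members were called in more than 1 experiment, and their directions were not always shared. How many of all genes were called in more than 1 was not counted. Ef2b was higher at high sugar in each of the 3 female experiments (0.68 in cg-GAL4 females, 0.52 at 1.0 M in w1118 females and 0.30 in 60100 controls), while at 1.0 M in control males its change of -0.33 was not called (adjusted p = 0.125, limma). Aats-tyr and eIF-3p66 had called falls at 1.0 M in control males (-0.50 and -0.63) and called rises at 0.7 M in 60100 controls (0.40 and 0.29). These experiments differ in sex, driver, control stock, isolation and dose, and the difference was not tested. Aats-asn and Aats-thr rose at 0.7 M in cg-GAL4 females (0.46 and 0.38) and in 60100 controls (0.28 and 0.22). Ef1alpha48D was called lower in Tfb1 RNAi at both diets and in FOXO RNAi at 0.15 M, and in 60100 females it also ranged widely among controls at 0.7 M, from 139 to 339 FPKM. eIF-4a fell in Tfb1 RNAi at 0.15 M (-0.50) and rose with sugar in w1118 females (0.57). eIF-5A fell in Tfb1 RNAi at 0.15 M (-0.81) and rose at 0.7 M in cg-GAL4 females (0.46). eIF6 and Aats-ala rose in Tfb1 RNAi at both diets and in Stat92E RNAi at 0.7 M, and Aats-ala also rose with 0.7 M sucrose in 60100 controls. eIF-1A was called only lower, in Tfb1 RNAi at both diets and in 60100 controls at 0.7 M. Not all these calls held under rescaling. It ended those of Ef2b, eIF-3p66, Aats-asn, Aats-thr and Aats-ala in 60100 controls and of Aats-ala in Stat92E RNAi. It also ended those of eIF-4a in Tfb1 RNAi at 0.15 M and eIF-5A in cg-GAL4 females, where Aats-thr fell below the filter.

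Some members varied severalfold among the libraries of an experiment, each of which has its own scale. eIF-4B lay between 0.109 and 2.79 FPKM in the 60100 females, against 0.904 to 6.78 in w1118 females, 7.21 to 10.3 in cg-GAL4 females and 6.75 to 15.1 in males. eIF4G, the scaffold, had the same order, with 0.0432 to 0.582, 0.270 to 1.87, 1.93 to 3.12 and 3.44 to 6.17 FPKM, and its paralog eIF4G2 lay at 0 to 0.117, 0.00449 to 0.171, 0.0511 to 0.252 and 0.145 to 0.560. eIF5, the GTPase-activating partner of eIF2, lay at 0.236 to 1.24, 0.444 to 1.95, 1.57 to 2.56 and 2.57 to 3.96 FPKM. In FOXO RNAi at 0.7 M library 2 held 2.18 FPKM of eIF-4B against 0.308, 0.324 and 0.223 in libraries 1, 3 and 4, and 0.497 of eIF4G against 0.0918, 0.105 and 0.0688. So 1 library of a group could stand several-fold above the rest. eIF2B-gamma was as uneven within groups, for example 0.499, 0.0271 and 0.0397 FPKM in cg-GAL4 females at 0.15 M. eIF2B-delta was listed at 0 in all 3 male control libraries at 0.15 M, and at 0.261, 0.435 and 0.529 FPKM in Tfb1 RNAi there.

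Other genes of translation were followed in lists written for this work. Of 19 further factors 10 were tested in males, and in Tfb1 RNAi at 0.15 M 3 rose and 4 fell, against 36.2% of all genes called. In the other comparisons 0 to 4 of the 9 to 11 tested were called, while the share of all genes called ran from 0.238% to 39.7%. In 60100 controls at 0.7 M 2 rose and 2 fell of 9, against 31.1% of all genes. In FOXO RNAi at 0.7 M 0 of 9 were called by limma, against 26.8%. pAbp, the poly(A)-binding protein, averaged 80.1 ± 6.0 FPKM in Tfb1 RNAi and 31.1 ± 5.7 in controls at 0.15 M (SD, n = 3 each; change 1.35, adjusted p = 1.82e-05, limma), and 98.4 ± 3.4 and 49.5 ± 3.0 FPKM in Tfb1 RNAi and controls at 1.0 M (0.98, adjusted p = 0.000313). Elf, the release factor eRF3, rose by 0.73 at 0.15 M and 0.39 at 1.0 M, while Rack1, a ribosomal scaffold, fell by 0.62 at 0.15 M. pix, the ribosome recycling ATPase, rose with sugar in cg-GAL4 females (0.49), in w1118 females at 1.0 M (0.59) and in 60100 controls (0.34), and fell in Tfb1 RNAi at 0.15 M (-0.39). Of 13 synthetases with names outside the pattern only CG17259 (SerRS) was tested, in the 60100 females, where it rose in controls at 0.7 M (0.42), in FOXO RNAi at 0.15 M (0.36) and in Stat92E RNAi at 0.7 M (0.39).

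Of 18 genes of TOR and stress control 5 to 7 were tested in an experiment. Thor, the 4E-BP that binds eIF4E and blocks cap-dependent initiation, had the largest changes: 17.3 ± 0.9 FPKM in Tfb1 RNAi and 154 ± 14 in controls at 0.15 M (SD, n = 3 each; change -3.08, adjusted p = 4.77e-08, limma), and 20.7 ± 3.2 and 100.4 ± 5.0 FPKM in Tfb1 RNAi and controls at 1.0 M (-2.23, adjusted p = 9.97e-07). The Tfb1 effect on Thor differed between diets by 0.84 (adjusted p = 0.0155). In the 60100 females Thor averaged 30.8 ± 11.1 FPKM at 0.7 M and 50.6 ± 8.0 at 0.15 M in controls (n = 4 each; change -0.76, adjusted p = 0.0140), and 30.1 ± 9.6 in FOXO RNAi at 0.15 M (-0.76 against the same controls, adjusted p = 0.0208). CG11299 (Sesn, the stress-induced sestrin) fell in 60100 controls at 0.7 M (-0.52), in FOXO RNAi at 0.15 M (-0.70) and in Stat92E RNAi at 0.15 M (-0.57). Of 8 mitochondrial translation factors 2 at most were tested, and CG6412 rose in Stat92E RNAi at 0.7 M (0.21, adjusted p = 0.0186).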

How the data were processed

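RNA-seq libraries of larval fat body (61 columns, 14659 genes) were analysed from the FPKM values the authors deposited. Per the submitters' processing notes the tools were TopHat 1.3.2, Bowtie 0.12.7 and Cufflinks 1.1.0, with the dm3 genome; per the labels' protocols RNA was Trizol-extracted, treated with DNase and depleted of ribosomal RNA. The values show a further scaling of each library to a fixed rank, a step not given in the sources used here. Fragments per FPKM were inferred from the smallest products of FPKM and transcript length that occur in numbers, and no counts were used. Of the columns 18 were matched to samples by title and 43 to a group only, in which library numbers are names; headings of male columns say r4 where the labels say cg-GAL4, and the labels were followed. The 3 columns of p53 RNAi at 0.15 M are headed in the same form as the male ones. No 2 columns were identical and 0 columns were left unused.

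Each experiment was fitted alone with limma 3.58.1 in R 4.3.3 (mean per group, empirical Bayes with a trend) on log2(FPKM + 1), over genes averaging 1 or more, with p-values adjusted by the Benjamini-Hochberg method over all genes tested and called under 0.05, in 19 comparisons; the fit was tested on simulated data. The labels do not tie libraries to separate sets of animals, so the p-values reflect only how far these libraries differ, which may be technical. The members, the 10 gene lists and the tests were chosen with earlier results of these data known. Values and tests are given for up to 4 called members with the largest change per comparison, or the 2 largest where none was called; list genes are named up to 3. Alternatives were a pseudocount of 0.1, no filter, rescaling by the median ratio, a replicate block and leaving out each library, and, chosen after seeing the data, removal of a transcript length trend and a filter of 0.25 with a pseudocount of 0.1. Gene positions were not used, since the annotation at hand is of another build; it served for names, lengths and overlaps.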

Additional observations from a re-analysis of the deposited data

Results flagged for a closer look

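Among 154 combinations of a gene and a group of 4 libraries, 16 held 1 library far from the other 3 by Dixon's criterion, whose critical value lets chance pass about 1 in 20 groups. The combinations share libraries and are not independent, so the number of such cases is not set against that rate. All were in the r4-GAL4 60100 females, whose groups alone have 4 libraries, and most were library 2. In FOXO RNAi at 0.15 M library 2 stood apart for Ef1alpha48D (229 FPKM, against 137 to 151 in the others), Aats-his (1.53 against 2.65 to 2.70), eIF-1A (11.1 against 9.35 to 9.57), eIF-4E (5.26 against 3.27 to 3.52) and Thor (44.3 against 23.9 to 26.6), and library 4 for Aats-ala (1.31 against 1.59). In FOXO RNAi at 0.7 M library 2 stood apart for eIF-4B (2.18 FPKM against 0.223 to 0.324) and eIF4G (0.497 against 0.0688 to 0.105), and library 4 for eIF2B-beta (2.16 against 1.29 to 1.43). In Stat92E RNAi at 0.15 M library 2 stood apart for eIF-4B (2.79 FPKM against 0.485 to 0.583), Aats-his (1.58 against 2.98 to 3.24) and Ef1gamma (44.3 against 65.3 to 67.7). In control larvae at 0.15 M library 2 stood apart for eIF4G (0.582 FPKM against 0.256 to 0.260). In Stat92E RNAi at 0.7 M library 3 stood apart for eIF-1A (9.15 FPKM against 8.28 to 8.40), and in p53 RNAi at 0.7 M library 4 for eIF-4E (1.87 against 2.21 to 2.26) and library 2 for eIF3-S8 (9.496 against 9.82 to 9.86).

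The effect of FOXO RNAi on Aats-thr differed between diets by the interaction term of the limma fit (-0.39, adjusted p = 0.0208).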

How the results depend on the processing

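The 47 called single-gene changes kept their direction in every alternative run; 20 stayed called in every planned one, 21 when any 1 library was left out, and 33 of 46 testable under rescaling by the median ratio. The moves in the counts of called members include the following. Rescaling gave 4 in the male diet comparison (2 in the chosen fit), 3 in cg-GAL4 females (7), 6 in 60100 controls (10), 4 in FOXO RNAi at 0.15 M (2), 1 in FOXO RNAi (0) and 1 in p53 RNAi (0) at 0.7 M, and 0 in the FOXO interaction (1). In Tfb1 RNAi at 1.0 M it gave 6 higher and 3 lower (3 and 3 in the chosen fit), against 389 and 322 of 2683 genes. Over all genes it gave 211 higher and 268 lower of 2508 in FOXO RNAi at 0.15 M. In p53 RNAi at 0.7 M these were 166 and 205, and the other splits stand above. No filter gave 11 of 49 members in cg-GAL4 females, 3 in w1118 females at 0.7 M (1), 2 in FOXO and 1 in p53 RNAi at 0.7 M. Over all genes it gave 621 higher and 769 lower of 8320 in cg-GAL4 females, and 274 and 553 of 8334 in w1118 females. In FOXO RNAi it gave 671 and 529 of 9851 genes, and in p53 RNAi 116 and 179. In 60100 controls no filter gave 8 members higher and 7 lower of 50, against 690 and 1832 genes. In Tfb1 RNAi at 0.15 M it gave 8 and 6 of 55 members, against 592 and 798 of 10594 genes. At 1.0 M these were 6 and 3 members, against 613 and 358 genes. Removal of a length trend gave 4 in the male diet comparison, 1 in FOXO RNAi at 0.7 M, 2 in its interaction and 3 in p53 RNAi at 0.7 M. Over all genes it gave 165 higher and 608 lower of 2698 in the male diet comparison. In FOXO RNAi it gave 260 and 446 of 2521 genes, in its interaction 125 and 174, and in p53 RNAi 125 and 164. In 60100 controls removal of the trend gave 12 members higher and 3 lower of 31 (7 and 3 in the chosen fit). Over all genes it gave 519 and 268 of 2521 there (471 and 313 in the chosen fit). The filter of 0.25 with a pseudocount of 0.1 gave 4 in the male diet comparison, 17 and 10 of 48 members in Tfb1 RNAi at 0.15 M and 1.0 M (10 and 6), 11 of 44 in cg-GAL4 females, 3 in w1118 females at 0.7 M and 1 in FOXO RNAi at 0.7 M. Over all genes it gave 513 higher and 772 lower of 6329 in Tfb1 RNAi at 0.15 M, and 524 and 337 at 1.0 M. In cg-GAL4 females these were 674 and 493 of 4796 genes. The male diet comparison had 204 and 654, w1118 females 238 and 149 of 4682, and FOXO RNAi 437 and 628 of 5002. In 60100 controls 8 of 43 members were higher and 6 lower, against 651 and 750 of 5002 genes. More genes were tested in this fit. The cause of the other moves was not tested.

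Leaving out 1 library gave 1 to 5 in the male diet comparison, 6 to 9 and 2 to 9 in Tfb1 RNAi at 0.15 M and 1.0 M, 0 to 3 in the Tfb1 interaction, 4 to 6 in cg-GAL4 females, 0 to 1, 1 to 2 and 1 to 4 in w1118 females at 0.7 M, 1.0 M and in the trend, 4 to 13 in 60100 controls, 1 to 5 and 0 to 2 in FOXO RNAi at 0.15 M and 0.7 M, 0 to 2 in its interaction, 0 to 5 in p53 RNAi at 0.7 M, 0 to 1 and 0 to 7 in Stat92E RNAi at 0.15 M and 0.7 M, and 0 in the rest. The share of all genes called in these runs is not given here, so the ranges are not read as results about the members.

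Same-numbered libraries correlated between -0.243 and 0.401 in their deviations. Differently numbered libraries were not compared, so whether the numbers pair the samples is not settled. With a replicate block 4 members were called in the male diet comparison (2 in the chosen fit), against 126 higher and 588 lower of 2698 genes. In the w1118 trend 4 were called (2), against 257 higher and 119 lower of 2177 genes. At 1.0 M in w1118 females 3 were called (2), against 257 higher and 96 lower. Aats-thr in cg-GAL4 females was then not called (adjusted p = 0.0561, limma). No paired analysis was possible for the 60100 females because, apart from the 3 columns of p53 RNAi at 0.15 M, their columns carry no numbers. Depth limits members below 1 FPKM.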

Other observations

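With a filter of 0.25 and a pseudocount of 0.1, a setting chosen after seeing the data, members with a mean below 1 could be tested. In Tfb1 RNAi at 0.15 M Aats-gln, which charges tRNA with glutamine, averaged 0.865 FPKM against 0.389 in controls (change 0.98, adjusted p = 0.000569, limma). Aats-lys (0.95), Aats-glupro (0.80), Aats-gly (0.70) and Aats-val (0.45) were called higher too. At 1.0 M Aats-gln (0.84), Aats-lys (1.03), Aats-thr (0.90) and the mitochondrial Aats-phe (0.77) were called higher. In cg-GAL4 females at 0.7 M Aats-trp averaged 0.744 FPKM against 0.344 at 0.15 M (0.93, adjusted p = 0.00523), and Aats-ile (0.82), Aats-ala (0.77), Aats-his (0.70) and Aats-glupro (0.59) were called higher. In the 60100 controls at 0.7 M Aats-trp rose (0.42), while Aats-arg (-0.73) and eIF5 (-0.79) fell. In that comparison 8 of 43 members were called higher and 6 lower, against 651 and 750 of 5002 genes.

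In the same fit Ef1alpha100E, the second eEF1A gene, fell with sugar in both r4-GAL4 experiments. In w1118 females it averaged 0.195 FPKM at 0.7 M and 0.169 at 1.0 M against 0.584 at 0.15 M (-1.23 and -1.34, adjusted p = 0.0274 and 0.0151, limma), with a trend of -1.42 per 1 M of sucrose. In 60100 controls it averaged 0.333 FPKM at 0.7 M against 0.909 at 0.15 M (-1.17, adjusted p = 0.00346). It was also lower in Tfb1 RNAi males at 0.15 M (0.237 against 0.510 FPKM, -0.86, adjusted p = 0.0256). These levels rest on few fragments.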
